A study of Mus musculus with 4 samples.

Results

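Single-exon assembled loci were the genes that the assembler reported without any splice junction: every transcript of the gene had 1 exon, and the deposited FPKM was above 0. They numbered 20139 of 41380 assembled genes (48.7%) in control cells, 28001 of 49651 (56.4%) after knockdown of Ptbp1, 21697 of 43041 (50.4%) after knockdown of Ptbp2, and 27103 of 48814 (55.5%) after knockdown of both. Those totals include genes at an FPKM of 0. Of the 34480, 43156, 36282 and 42382 genes with FPKM above 0, in the same order, the loci were 58.4%, 64.9%, 59.8% and 63.9%. N2A, the mouse neuroblastoma line used, gave poly(A) RNA for all 4 libraries, which were made strand-specific with dUTP and read as 100-base pairs. Cells were transfected for 5 h with DNA for a control shRNA (shControl), shptbp1, shptbp2, or shptbp1 together with shptbp2, and were then cultured for 3 days. The control cells thus also went through transfection. Each group was 1 library of 1 cell line, and whether it held pooled cultures is not given in the sources used here. No spread between replicates could be measured, no test was run, and all 3 knockdowns were set against the same control library. Values for the 4 libraries are given in the order control, Ptbp1 knockdown, Ptbp2 knockdown, double knockdown.

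An assembler reports a locus without a junction wherever reads lie side by side on 1 strand and none crosses an intron. Such RNA comes from several known sources: genes that lack introns, such as the replication-dependent histones, processed pseudogenes, which are copies of spliced mRNAs put back into the genome, intron RNA that has not been spliced out, RNA that runs past the end of a gene, and RNA made from the opposite strand. Ptbp1 and Ptbp2 are paralogous polypyrimidine tract binding proteins that bind pyrimidine-rich intron sequence and repress the splicing of many exons, and neurons replace the former by the latter as they mature.

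Copies of ribosomal protein mRNAs were frequent among the strongest loci, so the sequences of 3 named pseudogenes are shown with their parent coding sequence. Each line holds 240 bases, 5′ to 3′, from the transcripts of GENCODE vM21 (build GRCm38), and capitals mark the bases at which pseudogene and parent differ. The first pair belongs to the strongest named locus on the strand opposite to a spliced gene, and the pseudogene holds all 375 coding bases of the parent without a difference.
Rpl31-ps8: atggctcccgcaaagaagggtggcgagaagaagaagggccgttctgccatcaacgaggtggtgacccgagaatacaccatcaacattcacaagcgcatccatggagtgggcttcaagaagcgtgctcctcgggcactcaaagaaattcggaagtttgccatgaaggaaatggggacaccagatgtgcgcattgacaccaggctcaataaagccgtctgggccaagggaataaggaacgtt
Rpl31: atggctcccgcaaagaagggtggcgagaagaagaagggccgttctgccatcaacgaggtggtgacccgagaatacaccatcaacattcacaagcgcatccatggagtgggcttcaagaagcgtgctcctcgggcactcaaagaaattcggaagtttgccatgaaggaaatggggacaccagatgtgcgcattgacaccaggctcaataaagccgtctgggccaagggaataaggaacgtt
The second pair belongs to the strongest named locus outside spliced genes and shows coding bases 133 to 372 of the parent, with 1 difference.
Gm9794: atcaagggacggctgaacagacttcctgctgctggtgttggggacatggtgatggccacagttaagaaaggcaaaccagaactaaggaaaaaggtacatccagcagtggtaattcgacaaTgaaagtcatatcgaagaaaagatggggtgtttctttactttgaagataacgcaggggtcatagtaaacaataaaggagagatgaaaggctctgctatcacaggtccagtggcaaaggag
Rpl23: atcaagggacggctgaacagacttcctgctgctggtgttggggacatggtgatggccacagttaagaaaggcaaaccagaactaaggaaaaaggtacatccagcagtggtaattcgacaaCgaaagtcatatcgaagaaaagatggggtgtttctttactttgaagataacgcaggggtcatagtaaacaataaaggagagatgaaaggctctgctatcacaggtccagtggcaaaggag
The third pair was the least alike among the strongest named loci outside spliced genes that aligned to their parent without a gap, with 12 differences over the parent's coding sequence and 3 of them in the stretch shown.
Gm8730: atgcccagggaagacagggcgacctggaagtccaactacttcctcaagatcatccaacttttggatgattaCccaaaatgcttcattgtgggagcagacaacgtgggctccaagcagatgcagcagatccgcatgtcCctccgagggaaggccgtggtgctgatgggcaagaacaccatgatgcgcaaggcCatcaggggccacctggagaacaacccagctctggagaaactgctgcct
Rplp0: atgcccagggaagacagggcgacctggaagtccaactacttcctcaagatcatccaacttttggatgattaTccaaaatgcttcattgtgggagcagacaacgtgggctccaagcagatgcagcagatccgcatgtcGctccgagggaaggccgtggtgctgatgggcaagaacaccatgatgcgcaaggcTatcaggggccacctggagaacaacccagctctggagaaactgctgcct
A read of 100 bases that falls between such differences matches both copies. Levels of these loci and of their parents are therefore uncertain, since the aligner decides which copy receives a read.

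The files gave no read counts, so depth was taken as coverage, the mean read depth per base that the assembler reports. Coverage times length summed to 19.0, 15.5, 17.6 and 19.4 Gb of assembled sequence. The deposited FPKM stood on an unusual scale, and each library was rescaled so that FPKM times length in kb sums to 1000000, which is called the level below. Spliced Ptbp1 had levels of 149, 55.4, 177 and 36.8 and Ptbp2 of 35.2, 76.0, 10.8 and 20.6, so each targeted gene was lower in the libraries labelled with its shRNA. Markers of noradrenergic neuroblasts were present in every library (Phox2a 58.9 to 80.1, Hand2 176 to 233), although Th, the enzyme that starts catecholamine synthesis, had only 0.0987 to 1.86. The listed markers of astrocytes, blood, muscle, vessels and fibroblasts stayed low, with Pecam1 at 0.760 to 1.16 the highest of these.

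The loci were short and thinly covered. Their median length was 782, 876, 813 and 793 bases, and their median coverage was 5.47, 4.83, 5.24 and 5.46 reads per base. Together they covered 21.6, 34.2, 23.6 and 29.4 Mb of the genome, so the Ptbp1 knockdown library, which had the fewest assembled bases, covered the most. Loci of at least 5 kb numbered 269, 541, 280 and 379, and the longest reached 29860, 35942, 26205 and 26192 bases. Short loci of under 200 bases numbered 1526, 1412, 1354 and 1728. Despite their number, single-exon loci held only 20.4%, 20.9%, 22.1% and 19.95% of assembled bases, and the mitochondrial genome made up much of that: without it the share was 10.1%, 10.1%, 10.9% and 9.42%. Nearly all loci were newly assembled, with 358, 380, 371 and 383 gene identifiers that carried a RefSeq name, of which 162 occurred in all 4 libraries.

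**Figure D1:**
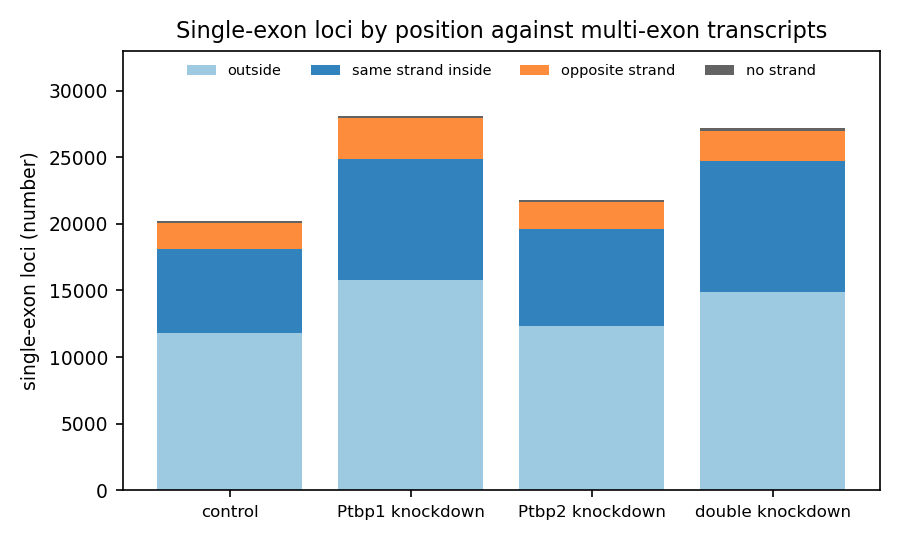
Number of single-exon loci in each of the 4 libraries (stacked bars), split by position against the spans of multi-exon transcripts of the same library. In all 4 libraries loci outside spliced genes are the most numerous, with 11768 in control and 15799 in the Ptbp1 knockdown.

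A few genes occupied more than 1 stretch, and each stretch was counted, which gave 20221, 28097, 21772 and 27194 places. By position, loci outside the span of any multi-exon transcript of the same library came first, with 11768, 15799, 12358 and 14899 loci. Loci inside such a span on the same strand, where intron RNA would lie, numbered 6374, 9083, 7231 and 9817. Loci on the opposite strand numbered 1954, 3099, 2057 and 2271. A further 125, 116, 126 and 207 loci had no strand. As shares of a library, loci on the same strand made up 31.5% (exact 95% binomial interval 30.9 to 32.2), 32.3% (31.8 to 32.9), 33.2% (32.6 to 33.8) and 36.1% (35.5 to 36.7), intervals that cover counting error only. The share was thus highest in the double knockdown, while the opposite-strand share was highest in the Ptbp1 knockdown at 11.0% against 9.66%, 9.45% and 8.35% in the others. Among loci with a strand, those inside spliced genes were the shortest, with a median of 605, 650, 640 and 593 bases, and opposite-strand loci the longest, with 943, 1174, 988 and 988 bases.

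The strongest single-exon locus with a strand was the mitochondrial genome, whose compact genes lack introns and are cut from long transcripts of both strands. It was assembled nearly end to end on the plus strand at levels of 5516, 5658, 6331 and 5655, which were 9.52%, 9.73%, 10.2% and 9.73% of assembled bases. The minus strand stood at 927, 764, 1122 and 879. The plus strand was the stronger in every library.

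The 30 strongest regions of at least 200 bases (10 in each position class, by median level, the mitochondrial plus strand among them) included many copies of highly expressed mRNAs. Neighbouring genes placed 18 of the 30 on 1 annotated single-exon pseudogene each, and 14 of those had a ribosomal protein gene as parent. Of the 30, 22 were single-exon loci in all 4 libraries. Gm9794, the copy of Rpl23 shown above (mm9 chr6:66825323-66825765, minus strand, between Vmn1r32 and Gng12), had levels of 1348, 1134, 1493 and 1244. Its deposited 95% interval in control was 1337 to 1358, which covers the assembler's own error and not the choice between copies. The spliced transcripts of Rpl23, a protein of the large ribosomal subunit, had 26.7, 23.8, 30.5 and 23.6. The locus therefore stood far above its parent in every library, and the 4 values of the locus lay within a narrow range beside that gap.

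The same order held on the opposite strand of spliced genes. Rpl31-ps8 (mm9 chr15:90594665-90595177, minus strand, between Cpne8 and Kif21a) had levels of 1164, 1080, 1218 and 1201 against 27.0, 30.5, 42.5 and 41.7 for spliced Rpl31. Rps23-ps1 (mm9 chr3:37613629-37614102, plus strand, facing Gm5148) had 1124, 905, 923 and 816 against 24.1, 21.0, 22.1 and 17.1 for Rps23. Rps16-ps2 (mm9 chr5:129633878-129634447, minus strand, facing Adgrd1) had 942, 852, 1081 and 838 against 4.34, 3.07, 7.62 and 3.65 for Rps16. All 3 of these annotated pseudogenes were identical to the parent over the aligned part.

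Inside introns of spliced genes on the same strand, the strongest was Gm12191 (mm9 chr11:49492218-49492632, minus strand, within Cnot6, a subunit of the CCR4-NOT deadenylase), a copy of Rpl30. It had levels of 682, 596 and 705 in control and the single knockdowns, against 7.95, 11.1 and 5.92 for spliced Rpl30. In the double knockdown the stretch was still covered, at a mean depth of 13603 reads per base, but under a gene that was not a single-exon locus. Gm3531, a copy of Btf3 within Pam, went the other way: it had levels of 533, 680 and 578 in the knockdowns and lay under a multi-exon gene in control. Gm16580 (within Luc7l), a copy of the poly(A)-binding protein gene Pabpc1, had 382, 340, 422 and 427 against 248, 227, 235 and 262 for its parent. Gm8399, a copy of gamma-actin (Actg1) within 9330111N05Rik, was the exception to the order, with 449, 166, 306 and 253 against 1161, 333, 625 and 695.

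Outside spliced genes, Gm8730, the Rplp0 copy between Cdh11 and Cdh5, had levels of 976, 1022, 1244 and 1112 against 477, 439, 524 and 578 for Rplp0. Gm8756, a copy of the glycolytic enzyme gene Gapdh between Enc1 and Arhgef28, had 1180, 943, 1108 and 695 against 209, 180, 196 and 181. Its assembled length was 382, 380, 548 and 721 bases, and its mean depth over the whole stretch, at 12310, 8012, 15339 and 14063 before scaling, did not follow the order of the levels. These copies lay nearer to their parents than those of Rpl23 or Rpl31. Over the named copies with both values, the locus exceeded its spliced parent in 15 of 16, 15 of 16, 17 of 18 and 13 of 14, with a median ratio of 33.9, 21.5, 29.7 and 24.1. Gm8399 was the exception in each library.

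**Figure D2:**
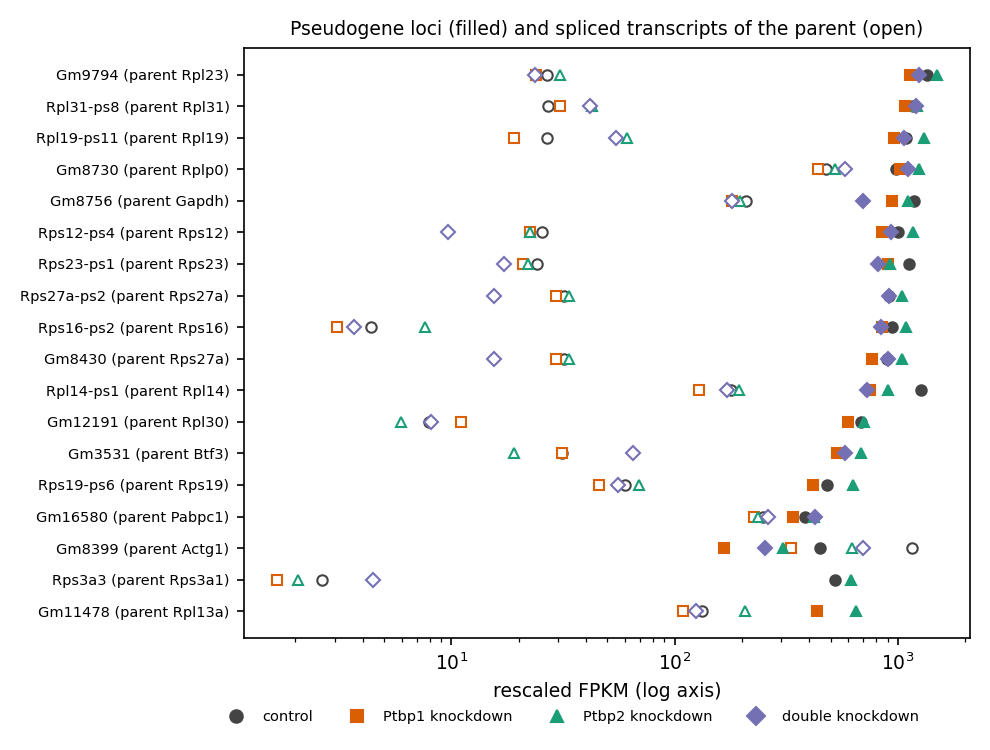
Levels (rescaled FPKM, log axis) of the 18 named pseudogene loci (filled) and of the spliced transcripts of their parent genes (open) in the 4 libraries. Filled symbols lie to the right of open ones except for Gm8399, and a locus that was not single-exon in a library has no filled symbol there.

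The strongest nuclear loci of all had several candidate pseudogenes between their neighbours and stayed unnamed. One between Pxylp1 and Spsb4 (mm9 chr9:96796031-96796786, plus strand) had levels of 3176, 2884, 3137 and 2846. One between Steap1 and Zfp804b (mm9 chr5:5781508-5783637, minus strand) had 1710, 1184, 1641 and 1381. One between Prkacb and Adgrl2 (mm9 chr3:146501793-146502332, minus strand) had 1624, 1298, 1941 and 1428. The first varied little across libraries, and the other two were lowest in the Ptbp1 knockdown. A locus opposite an assembled spliced transcript between Gpbp1 and Mier3 on chromosome 13 had levels of 1213, 189, 1181 and 1007, but it was assembled over 576 bases in the Ptbp1 knockdown and over 179 in the others. Its mean depth over the whole stretch, before scaling, was 6251, 2785, 5813 and 5207, so the depth differed less than the level did.

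The share of loci that matched 1 annotated pseudogene depended on their level. Of 186 regions present in all 4 libraries at a median level of at least 100, 91 (48.9%) matched, against 30 (16.1%) when the same lookup was made on the other strand. At levels from 10 to 100 the shares were 32.4% and 18.1%, from 1 to 10 they were 22.7% and 18.3%, and under 1 they were 11.0% and 10.8%. The excess over the other strand thus narrowed from the strongest loci to the weakest, where the shares were nearly equal. The median identity to the parent was 99.1% in the strongest group and 93.4% in the weakest. Among the matches at a level of at least 100, 34 of 85 with a parent came from ribosomal protein genes. Those strong loci exceeded their spliced parent in 69 of 82, 70 of 81, 66 of 77 and 67 of 79 pairs. Relative to control their median log2 difference in level was -0.19, 0.15 and -0.10 in the 3 knockdowns, beside -0.17, 0.08 and -0.01 for the parents.

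Short loci carried more FPKM per unit of coverage: at 100 to 150 bases the control library gave 1.82 times as much as at 1000 bases and above. The strongest short locus on the opposite strand faced Cfap97d2 (mm9 chr8:13713049-13713219, minus strand) at levels of 951, 793, 739 and 867. The strongest inside a spliced gene lay in Opcml, a cell adhesion gene (mm9 chr9:27605355-27605549, plus strand), at 405, 440, 890 and 475. One between Negr1 and Zranb2 (mm9 chr3:157073020-157073146, plus strand) had 120, 487, 665 and 597, and the annotation places the small nuclear RNA gene Gm22458 between the same neighbours on that strand. Control was the lowest of the 4 libraries there, and its deposited interval of 110 to 130 did not overlap the others.

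Loci inside spliced genes were spread over many hosts. A RefSeq host could be named for 4811, 6663, 5524 and 7604 loci, in 2286, 2831, 2536 and 3038 genes. Hosts with at least 10 loci numbered 19, 45, 31 and 72. Rai1, a chromatin-associated transcriptional regulator, held 22, 38, 17 and 36 loci, which together spanned 10.9, 32.9, 14.3 and 36.4 kb. The level of spliced Rai1 was 12.0, 10.1, 10.8 and 10.4, so the number of loci differed where the spliced level hardly did. Xkr6 held 11, 22, 11 and 20 loci, with a spliced level of 0 in all 4 libraries, so no comparison with it was possible. Lhfpl3 held 4, 30, 6 and 10 loci, with spliced levels of 0.170, 0.159, 0.228 and 0.0514.

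Other hosts had a different order. Tnrc6c, a partner of Argonaute proteins in silencing by microRNAs, held 22, 16, 19 and 20 loci, and Scn8a, a voltage-gated sodium channel gene, held 16, 8, 7 and 17. Gm37013, whose span runs across the clustered protocadherin genes, held the most in control, with 45, 36, 34 and 36 loci. Over 4433 hosts, 1800 held more loci than control and 1049 fewer in the Ptbp1 knockdown, 1410 more and 1101 fewer in the Ptbp2 knockdown, and 1988 more and 936 fewer in the double knockdown. The library totals differ in the same direction. On the same strand, 3.89%, 2.62%, 3.43% and 2.99% of these loci overlapped an exon of the deposited SpliceTrap list. Its 248945 exons include the flanking exons as well as those between them. Over all libraries 0% of single-exon loci overlapped an exon of a multi-exon transcript of their own library on that strand. The low share on listed exons thus partly follows from how loci are assembled, and where they lie cannot be read from it.

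On the opposite strand, 652, 1258, 696 and 682 loci lay across from exons, and the remainder faced introns only. The median level of a locus across from exons was 19.2%, 15.1%, 23.7% and 29.998% of the level of the spliced transcripts it faced. It exceeded those transcripts in 125 of 542 (23.1%), 227 of 1073 (21.2%), 147 of 552 (26.6%) and 148 of 545 (27.2%) loci with both values. Over loci, both levels went together (Spearman's rho 0.776, 0.758, 0.763 and 0.769). This is a description across loci of 1 library, which are not replicates and share its depth. A dUTP library can leave some reads on the wrong strand, and whether such reads take part was not tested.

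Outside spliced genes, loci lay more often past the end of a gene than before its start. Within 5 kb, 21.2%, 19.1%, 22.0% and 20.7% of outside loci followed a multi-exon span on the same strand, and 8.47%, 8.49%, 9.16% and 9.09% preceded one. Those that followed were thin, with a median coverage of 3.24, 3.38, 3.16 and 3.34 reads per base. The median over all outside loci was 4.36, 3.86, 4.09 and 4.04.

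The loci were only in part the same from library to library. Merged by at least 1 shared base on the same strand, the 97284 places of the 4 libraries formed 43670 regions. Of these, 7278 (16.7%) held a locus of all 4 libraries and 21533 (49.3%) of only 1. Regions with a locus only in the Ptbp1 knockdown were the largest such group with 8228, followed by the double knockdown with 6430, the Ptbp2 knockdown with 3786 and control with 3089. A further 3331 regions held loci of just the Ptbp1 and double knockdowns. As a share of each list, 40.03%, 27.7%, 37.0% and 29.0% of places overlapped loci of all 3 other libraries. Between single libraries the share ranged from 43.1% of the Ptbp1 knockdown's places found in control to 63.5% of control's places found in the double knockdown. The same overlap was not computed for multi-exon loci. Whether single-exon loci are shared less than assembled loci in general therefore cannot be told here.

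**Figure D3:**
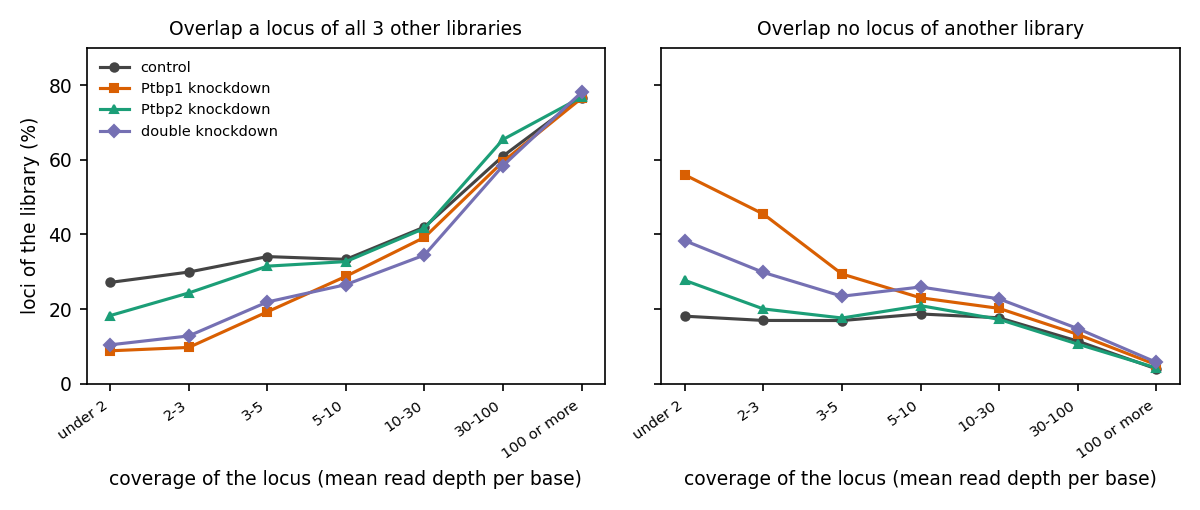
Share of each library's single-exon loci (%) that overlap a locus of all 3 other libraries (left) or of none (right), by coverage in mean reads per base. At 100 reads per base or more between 76.5% and 78.1% are found in all 4, and under 2 reads per base between 8.83% and 27.1%.

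Coverage went with sharing in every library. At a coverage of at least 100, 76.7%, 76.5%, 76.8% and 78.1% of places overlapped loci of all 3 others. At a coverage under 2 the shares were 27.1%, 8.83%, 18.3% and 10.4%. There 18.1%, 55.9%, 27.7% and 38.3% of places overlapped no single-exon locus of another library. The thin loci of the Ptbp1 and double knockdowns were thus the least shared. A place without such an overlap can still lie on an exon of a multi-exon gene elsewhere. At all coverages, 15.8%, 29.7%, 18.0% and 24.4% of places overlapped no single-exon locus of another library. Those that also overlapped no assembled exon of another library on the same strand were 11.2%, 27.3%, 14.0% and 21.6%. Sharing also differed by position: in control, 47.6% of outside loci but 25.9% of loci inside spliced genes were found in all 4 libraries.

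Very long loci had more depth in the Ptbp1 knockdown than in control. Mitochondrial loci and loci without a strand were left out here. The 267 loci of at least 5 kb chosen in control were compared by depth, scaled by assembled bases. Depth was higher in the Ptbp1 knockdown in 221 of 248 cases where both were above 0 (89.1%, median fold 1.87). In the Ptbp2 knockdown 106 of 243 were higher (43.6%, median fold 0.944), and in the double knockdown 175 of 244 (71.7%, median fold 1.31). Chosen in the Ptbp2 knockdown instead, 212 of 233 (91.0%) were higher in the Ptbp1 knockdown, with a median fold of 2.06. By level, a different measure, 71.6%, 60.3% and 62.9% of all single-exon loci matched as described below exceeded control in the Ptbp1, Ptbp2 and double knockdowns. For matched multi-exon loci the shares were 62.9%, 53.9% and 60.5%. Weak multi-exon loci were also higher in the Ptbp1 knockdown, with a median log2 ratio of 0.73 at levels from 0.5 to 1. Whether very long loci differ from other weak loci was not tested.

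The longest regions were long stretches between genes or across from them, with the mean depth given here before scaling. Between Igfbp7 and Adgrl3, an intergenic region of 42776 bases (mm9 chr5:80541586-80584361, plus strand) had a mean depth of 9.62, 18.4, 5.43 and 13.5 reads per base. Between Nudt12 and Efna5 (mm9 chr17:60783145-60816244, plus strand) depth was 21.1, 44.2, 12.2 and 34.8. Between Pcdh20 and Pcdh9, genes of protocadherins (mm9 chr14:90650047-90675095, minus strand), it was 31.8, 63.6, 26.0 and 40.1. In all 3 the Ptbp2 knockdown was lowest and the Ptbp1 knockdown highest.

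A region that starts 541 bases past the end of Prcp on the same strand (mm9 chr7:100083632-100113820) had 18.7, 33.4, 14.7 and 28.5. Across from Dcc, the netrin receptor gene, depth was 32.3, 65.7, 29.0 and 50.6, and across from Cdk13 (mm9 chr13:17792264-17824767, plus strand) it was 4.01, 13.4, 3.41 and 7.62. Across from the alpha protocadherin genes a region of 35942 bases had a depth of 0.13, 12.2, 0.65 and 9.17, so it was nearly empty in control and the Ptbp2 knockdown. Inside Magi1, a scaffold protein gene of cell junctions, a region of 17646 bases had 4.07, 5.17, 6.94 and 7.82, with control again lowest but the double knockdown highest. Longer same-strand regions differed in order. At mm9 chr14:64451709-64474480 depth was 4.85, 0, 2.30 and 13.5, and at chr18:28522190-28543679 9.98, 6.71, 9.12 and 20.7. At chr18:37580876-37600964 it was 6.33, 10.6, 5.24 and 8.81, and at chr8:72981134-72998838 4.77, 10.9, 4.46 and 7.95. On the opposite strand, chr13:55395763-55418361 had 0.0837, 0, 0.189 and 7.11.

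**Figure D4:**
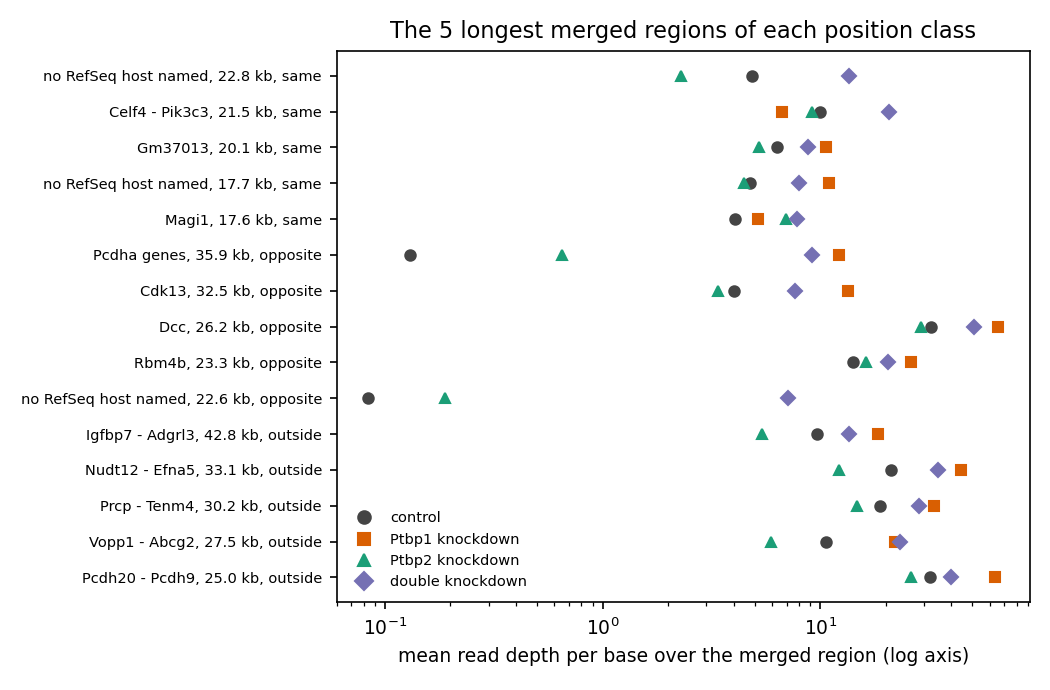
Mean read depth per base (log axis, before scaling by assembled bases) over the 5 longest merged regions of each position class in the 4 libraries. The Ptbp1 knockdown is highest in all 5 regions outside genes but the one between Vopp1 and Abcg2, and 2 values of 0 in that library cannot be drawn on the log axis.

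Levels were compared for loci matched 1 to 1 between a knockdown and control by a mutual overlap of at least 50%, which gave 8914, 9163 and 9229 pairs. A locus was called higher or lower when log2(level + 1) differed by at least 1, 1 of both levels was at least 3, and the deposited 95% intervals did not overlap. In the Ptbp1 knockdown 157 of 2522 single-exon loci at that level were higher (6.23%) and 53 lower (2.10%), where the same rule over all assembled loci called 2.76% higher and 1.21% lower. In the Ptbp2 knockdown 81 of 2407 were higher and 57 lower, beside 1.67% and 1.9% over all loci, and in the double knockdown 91 of 2451 were higher and 67 lower, beside 2.21% and 1.57%. Many calls came from short loci. With at least 200 bases in both libraries, 80 of 1849 (4.33%) were higher and 20 (1.08%) lower in the Ptbp1 knockdown, 25 and 23 of 1764 in the Ptbp2 knockdown, and 45 and 26 of 1773 in the double knockdown. Over all loci of that length the shares were 2.24% and 0.989%, 1.26% and 1.70%, and 1.93% and 1.29%.

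Called loci often differed in their assembled length as well. Of the loci called higher, 59.2%, 60.5% and 59.3% were shorter in the knockdown than in control, and of those called lower 67.9%, 71.9% and 79.1% were longer. Of the loci called neither, 44.3%, 41.0% and 41.8% were shorter and 41.8%, 43.8% and 43.9% longer. The part of length in these calls was not tested beyond leaving out the short loci.

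The largest difference among loci with a strand was a short locus between Cox7c and Edil3 (mm9 chr13:87538409-87538547, minus strand), with levels of 28.4, 705, 44.6 and 67.1. The interval was 26.1 to 30.8 in control and 680 to 730 in the Ptbp1 knockdown. The assembled length was 206 bases in control and 139 in the Ptbp1 knockdown. The opposite strand of that stretch was also higher in that library, with 3.84, 36.8, 24.9 and 10.9. A locus between Izumo3 and Caap1 (mm9 chr4:93211641-93211750, minus strand) was among the 5 largest in all 3 knockdowns, with 2.12, 24.8, 46.7 and 43.9. All comparisons used the same control value there, whose interval was 1.46 to 2.78. This locus was assembled over 212 bases in control and over 110, 109 and 109 in the knockdowns.

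In the Ptbp2 knockdown Gm6654, a copy of Rps26 facing Med21, stood apart with 1.37, 1.01, 20.4 and 1.34. Lower in all 3 knockdowns was a locus between Rasd2 and Iqcm on chromosome 8, with 19.4, 3.10, 2.51 and 2.36. A locus between Vmn1r235 and Zfp677 on chromosome 17 had 30.8, 10.4, 3.49 and 3.42, over 108 bases in control and 173 in the double knockdown. A call could also rest on the match. The locus called lower in the Ptbp1 knockdown between Bhlhb9 and Bex2 (mm9 chrX:132525807-132527894) had a matched level of 0.34 against 12.7, but the highest single-exon locus on the same stretch had 12.7, 35.1, 22.6 and 21.3.

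Loci without a strand were short and deep, with a median length of 255, 245, 237 and 239 bases and a median coverage of 41.8, 43.7, 52.4 and 50.3. The strongest in the Ptbp1 knockdown (mm9 chr13:113616354-113616465) had a level of 6703, and the strongest in the double knockdown (mm9 chr15:103125653-103125780) had 980 against 15.1 in control. On the chromosome 15 stretch the single-exon level was 0 in the Ptbp1 knockdown and in the Ptbp2 knockdown. Levels of the other libraries on the chromosome 13 stretch are not given here.

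Across all matched loci the median log2 ratio of level to control was 0.37, 0.12 and 0.19 in the 3 knockdowns, beside 0.15, 0.04 and 0.12 for multi-exon loci. The ratio went with the level itself. In the Ptbp1 knockdown the median at levels up to 0.2 was 0.58 for single-exon and 0.77 for multi-exon loci, and above 100 it was -0.19 and -0.14. Between those bins, at levels from 0.5 to 1, it was 0.48 and 0.73, and from 3 to 10 it was 0.05 and 0.19. Multi-exon loci thus had the higher median in each of these bins of the Ptbp1 knockdown, although single-exon loci had the higher median over all levels.

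**Figure D5:**
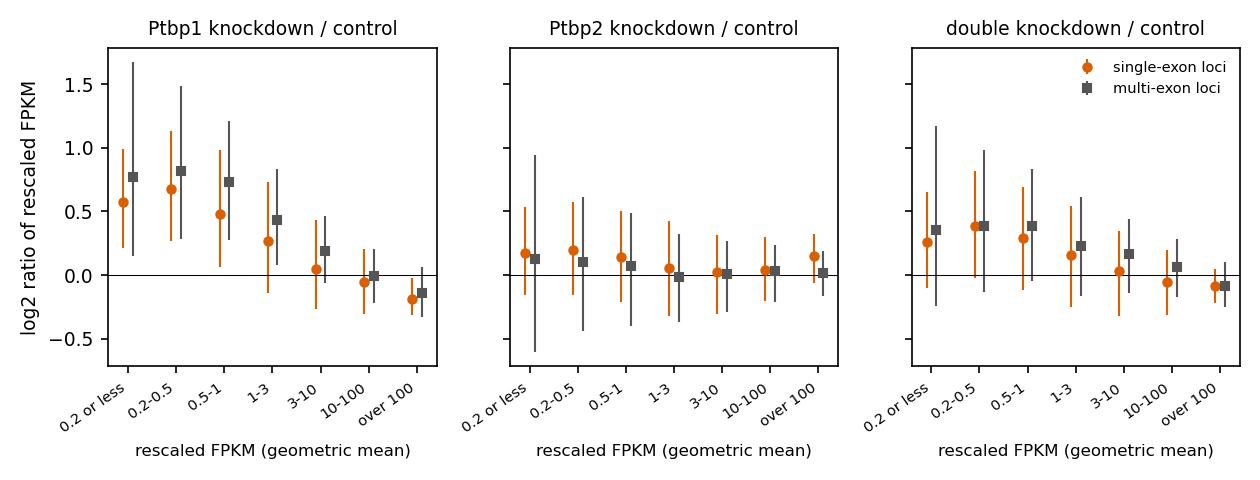
Median log2 ratio of rescaled FPKM to control, with quartiles over loci, for matched single-exon and multi-exon loci in bins of level. In the Ptbp1 knockdown single-exon loci go from 0.58 in the lowest bin to -0.19 in the highest, and multi-exon loci from 0.77 to -0.14.

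Annotated genes that lack introns were described by the depth over their RefSeq transcript from all transcripts on that strand, with folds scaled by assembled bases and a depth of at least 1 in both libraries. Over all such RefSeq genes, 18.9% were at least 2-fold higher and 4.58% at least 2-fold lower in the Ptbp1 knockdown, 8.65% and 4.51% in the Ptbp2 knockdown, and 13.0% and 4.91% in the double knockdown. Listed histone genes, which make the proteins that package new DNA and mostly end in a stem-loop in place of a poly(A) tail, lay lower. The list was picked by symbol and did not take in symbols that start with H3c. Core histone genes named that way are missing from these counts and folds. Of the 68 listed histone genes 37 overlapped a single-exon locus on the same strand in all 4 libraries. Some of these genes share a stretch, such as H2ac23 and H2ac24, so the counts hold some stretches more than once. At least 2-fold lower were 6 of 43 in the Ptbp1 knockdown, 4 of 47 in the Ptbp2 knockdown and 11 of 43 in the double knockdown, and 1, 2 and 0 were higher. Their median fold was 0.810, 0.887 and 0.601, where that of all such genes was 1.21, 1.06 and 1.07. The linker histone gene H1f2 had depths of 63.2, 29.1, 22.8 and 18.8, and H2ac12 had 14.7, 1.18, 4.70 and 2.14. The replacement linker histone gene H1f0 had 2887, 1761, 1739 and 1347, all before scaling. Control was highest for these 3, while H2ac23 went 36.0, 19.7, 61.3 and 22.4. Histone genes are near-identical copies of one another, so their single values are uncertain.

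Among intronless transcription factor genes, none of Sox4, Sox11 and Sox12, the SOX factor genes with depth in both libraries, reached a 2-fold difference, and Sox4 had depths of 932, 815, 1071 and 897. The same held for the 6 immediate early genes listed, such as Jun with 272, 294, 463 and 331 and Junb with 420, 281, 388 and 299, and for Cebpb with 91.7, 89.3, 59.6 and 84.3. Among long noncoding and structural RNAs, Malat1, a nuclear RNA found in speckles, had 348, 426, 314 and 488. Neat1, the scaffold RNA of paraspeckles, had 81.2, 114, 82.9 and 68.0. Terc, the telomerase RNA, had 3.01, 26.5, 7.22 and 11.6, with control the lowest. Of 114 small nucleolar and Cajal body RNA genes 24 overlapped a single-exon locus in any library, as did 80 of 566 microRNA genes, of which Mir682 was the deepest with 6017, 4800, 7552 and 6056. Olfactory and vomeronasal receptor genes, which belong to sensory neurons, were empty as a group: 1149 of 1248 had a depth of 0 in all 4 libraries.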

How the data were processed

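Poly(A) RNA of 4 libraries was analysed, 1 per group, so no test or p-value is given. Per the submitters' processing notes the authors used CASAVA, TopHat, Cufflinks and the build mm9, with versions not given in the sources used here. Levels start from deposited FPKM, which has 95% intervals, and its coverage is a signal of mean read depth per base, per the file headers. The score deposited in the transcript files was not used. FPKM was rescaled within each library. Members, gene lists and rules for named loci were chosen with earlier results of these data known. Named loci are the 10 strongest of at least 200 bases, the 5 longest and the 5 strongest shorter ones of each position class, and the 5 largest differences in each direction. Further loci and genes were picked from these tables after their values were seen. Names came from RefSeq neighbours in the mm9 files, then from the only GENCODE vM21 single-exon pseudogene of 0.5 to 2 times the length on that strand between the same neighbours. No coordinate was converted. Parents came from BLAST 2.17.0 (megablast, expect 1e-20), and other steps from Python 3.11.15 with pandas 2.3.3. Parent levels sum spliced transcripts that share an intron with the parent's RefSeq transcript. The scripts were tested on simulated data. Some items are not reported here.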

Additional observations from a re-analysis of the deposited data

How the results depend on the processing

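No paired analysis was possible because each group is 1 library. Of the alternatives, 22 were planned and 1 (leaving out loci under 200 bases) was chosen after seeing the data. Class shares over all libraries were 33.4% same strand, 9.64% opposite and 56.4% outside. With only spans of FPKM above 0 they were 31.9%, 7.64% and 59.9%, with exons in place of spans 0%, 3.59% and 95.8%, and for loci of at least 500 bases 29.0%, 10.4% and 60.6%. With loci wholly within a span, opposite and outside were 8.23% and 57.8%, and with precedence for the opposite strand, same and opposite were 32.3% and 10.7%. Overlap with all 3 other libraries was 32.7% of places, and 19.994% at 50% mutual overlap, 8.39% at 90%, 35.5% on either strand and 39.0% with any exon. Counts of higher and lower loci were 157 and 53, 81 and 57, and 91 and 67 in the Ptbp1, Ptbp2 and double knockdowns. A pseudocount of 5 gave 58 and 27, 39 and 19, and 30 and 26, 90% mutual overlap 74 and 11, 39 and 20, and 40 and 19, and leaving out short loci 80 and 20, 25 and 23, and 45 and 26. A level of at least 10 gave 74 higher with Ptbp1 knocked down, 30 lower with Ptbp2, and 51 and 38 with both, and a pseudocount of 0.1 gave 139 higher with both. Shares between single libraries, reported as 43.1% to 63.5%, were 31.7% to 45.7% at 50% mutual overlap and 15.2% to 21.6% at 90%. On either strand they were 45.6% to 65.9%, and with any exon 45.4% to 72.3%. Only a coverage of at least 1 kept all 12 of these shares. The cause of these moves was not tested. Shares between single libraries aside, the other 48 values kept within 1.5 times the value reported for counts and within its binomial interval for shares. Thin coverage limits all weak loci.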
